A study of Homo sapiens with 6 samples.

Results

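Mismatch repair genes were examined in cells labelled LoVo, an established human colorectal adenocarcinoma line that is known as mismatch repair deficient. The line was identified by the labels alone. The members were the 8 genes MSH3, MSH6, MLH3, PMS1, PMS2, EXO1, MSH5 and EPCAM, chosen by name. All 8 had entries in the deposited table, as 42 of its 45006 transcripts and 8 of its 19223 gene symbols. RNA was sequenced from 3 vehicle cultures without the drug (Control) and from 3 cultures given DCC-2036 at 2.5 μM, each for 48 h by the labels. DCC-2036 is an inhibitor of tyrosine kinases. All 6 libraries came from the same line in serum-containing medium, so they describe this line and no other. Each gene is represented by its most abundant transcript on average across the 6 libraries, and the values are a signal that the authors had already adjusted between libraries. Column totals were 38997229, 39956227 and 40587145 in Control and 43279603, 45957597 and 48023306 with DCC-2036. These are totals of adjusted signal, in which transcripts of 1 gene share reads, so the depth behind each value is unknown. Transcripts listed at 0 numbered 7844, 7940 and 8078 in Control and 5697 in each DCC-2036 library. Whether the adjustment treated the groups alike is not known and was not tested.

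The mismatch repair status of these cultures was not measured by the RNA libraries, and the basis of the deficiency known for the line was not analysed here. As a check of the labelled cell type, 6 of 11 epithelial markers had a signal of at least 10 in every library, led by KRT8 with a mean of 84084, and CDX2, a transcription factor of intestinal epithelium, had a mean of 291. The other 5 were at or near 0, although they mark intestinal epithelium, so the identity of the line rests on the label and should be checked. The mean was 2.98 for LGALS4, 2.03 for VIL1, 1.93 for CDH17 and 0.151 for CEACAM5, and CDX1 was listed at 0 in all 6 libraries. The summed epithelial signal was 102850, 106629 and 113391 in Control and 145044, 160033 and 184879 with DCC-2036. Most of this sum was KRT8, whose mean went from 59932 to 108237. KRT20 did not rise with it and was at 64.1, 43.62 and 51.5 in Control and at 17.7, 28.01 and 24.57 with DCC-2036, and the CDX2 values of both groups overlapped. The list includes EPCAM, itself a member. Fibroblast markers summed to 440, 412 and 370 in Control and 516, 452 and 553 with DCC-2036, most of it from COL1A1 with a mean of 416. The leukocyte markers PTPRC and CD3D were listed at 0 in all 6 libraries, and the leukocyte sums were 4.58, 15.2 and 11.1 in Control and 16.7, 16.4 and 30.9 with DCC-2036. Endothelial markers summed to 14.2, 4.99 and 14.9 in Control and 40.2, 15.4 and 20.3 with DCC-2036. The part of these markers in the results on the repair genes was not tested.

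Mismatch repair removes bases that were paired wrongly, and small loops that were left behind, when DNA is copied. MutS complexes find the error, MutL complexes are recruited and nick the new strand, an exonuclease removes a stretch of it, and the replication machinery fills the gap. Tumours without this pathway gather changes in short repeats, a state called microsatellite instability, which is common in a class of colorectal cancers. Among the members, MSH6 and MSH3 are the variable MutS subunits, MSH6 for single mispairs and short loops and MSH3 for longer loops. MSH5 is a MutS homologue that works with MSH4 in meiotic crossing over rather than in repair. PMS2, PMS1 and MLH3 are alternative MutL subunits, EXO1 is the exonuclease, and EPCAM encodes an epithelial adhesion molecule whose gene is listed with the repair genes in inherited colorectal cancer.

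The start regions of several members are shown first, because some of these genes share a start region with a neighbour that is transcribed the other way. The sequences are from RefSeq (GRCh38.p14), in which 7 of the 8 members were matched. They are written 5′ to 3′ on the member's strand, and capitals mark the GC box GGGCGG and CCAAT, searched on both strands. The PMS2, MSH6, MSH5 and MLH3 stretches lie outside annotated exons (GENCODE 29), and 30 bases are given for PMS1.
PMS2 and AIMP2, chr7:6009126-6009244, minus strand: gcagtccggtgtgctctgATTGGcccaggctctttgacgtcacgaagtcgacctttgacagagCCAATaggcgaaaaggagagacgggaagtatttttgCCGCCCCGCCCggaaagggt
MSH6, chr2:47782945-47783081, plus strand: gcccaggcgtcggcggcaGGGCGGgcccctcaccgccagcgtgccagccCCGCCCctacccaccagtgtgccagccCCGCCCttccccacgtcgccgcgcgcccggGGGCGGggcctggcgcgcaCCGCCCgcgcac
MSH5, chr6:31739805-31739947, plus strand: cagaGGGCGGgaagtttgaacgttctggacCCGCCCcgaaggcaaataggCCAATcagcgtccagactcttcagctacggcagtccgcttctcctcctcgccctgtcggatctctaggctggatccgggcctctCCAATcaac
MLH3, chr14:75051533-75051667, minus strand: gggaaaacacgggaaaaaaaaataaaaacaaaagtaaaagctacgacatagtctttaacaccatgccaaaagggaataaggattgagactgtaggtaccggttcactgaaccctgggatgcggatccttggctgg
PMS1 and ORMDL1, chr2:189784393-189784422, plus strand: agcggATTGGctgcgagcagcgCCAATctc

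In windows of 250 bases before and 50 bases after a start, the GC box was found in 45% of all 35116 promoters of the reference, and CCAAT in 34.6%. Matches in the windows of the members are not all described here. The first MSH6 window held 5 GC boxes, and the MLH3 window held none of the motifs. A match describes the letters only, and no binding was measured.

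Among the members, more were called lower than higher with DCC-2036. MLH3, EXO1, MSH5 and PMS1 fell, MSH3 rose, and PMS2, MSH6 and EPCAM did not pass the test (limma on log2 of the signal plus 1, two-sided, adjusted p under 0.01 over 12725 genes). Thus 4 of 8 members were called lower, where 22.7% of all tested genes were, and 1 of 8 was called higher, where 19.2% were. The higher call rests on MSH3 alone and was lost under 8 of 13 alternatives. All 8 members had passed the filter on low values (a signal of at least 10 in at least 3 libraries). The groups did not overlap for the 4 lower members and for 3 members with higher values, MSH3, MSH6 and EPCAM, although those of MSH6 and EPCAM overlapped when libraries were scaled to equal totals. Over all tested genes the groups did not overlap in 38.1% with lower values and in 32.9% with higher values. The median log2 fold change was -0.41 over the 8 members and -0.09 over all tested genes. Since RNA was taken from whole cultures, fewer cells that express a gene and less of its RNA per cell cannot be told apart.

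**Figure D1:**
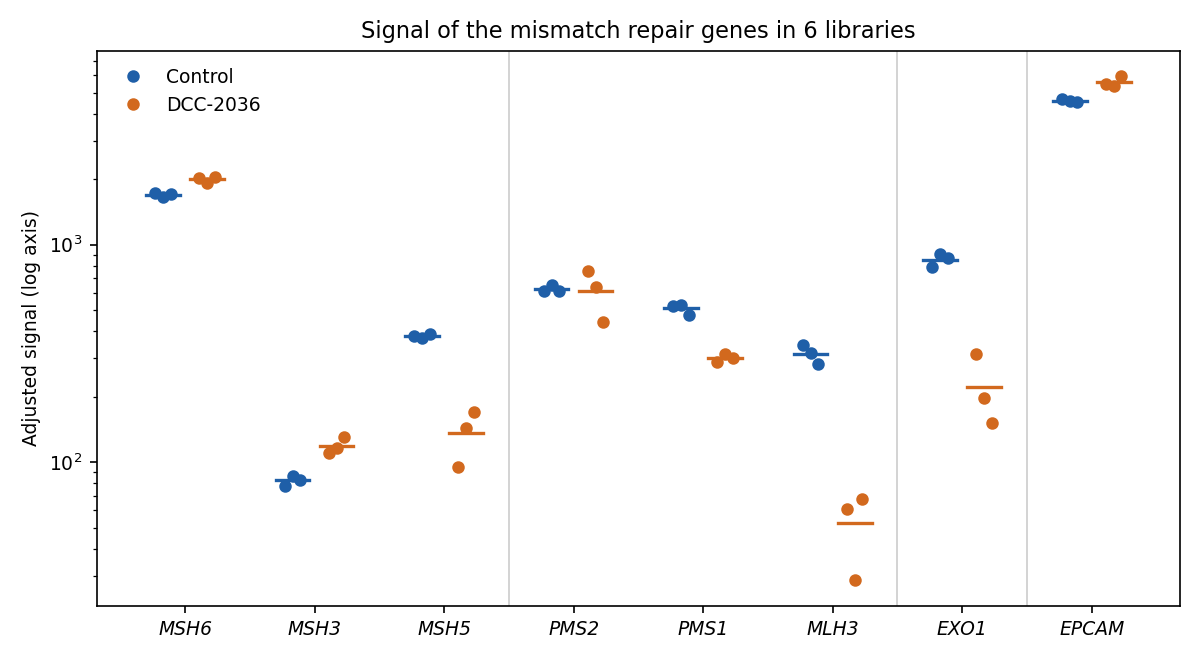
Adjusted signal (log axis) of the 8 members in each library, with 3 Control and 3 DCC-2036 points per gene and a short line at each group mean. The vertical lines part MutS homologues, MutL homologues, EXO1 and EPCAM; only in PMS2 do the points of both groups overlap, while those of MLH3, EXO1, MSH5 and PMS1 lie lower with DCC-2036.

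Among the MutS subunits, MSH6 had signals of 1728, 1652 and 1706 in Control and 2023, 1923 and 2050 with DCC-2036. Every treated library was above every Control library, but the gap was small. Its log2 fold change was 0.24 (SE 0.09), which did not pass the test (adjusted p = 0.0606). With libraries scaled to equal totals it was 0.0470 (adjusted p = 0.685), and the groups overlapped. The 4 MSH6 transcripts had log2 fold changes between 0.23 and 0.25, and none of them passed (adjusted p from 0.0495 to 0.0603). MSH6 is annotated on chr2:47695530-47810101 (GENCODE 29, GRCh38), and the transcript used has 10 exons and 4080 coding bases.

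MSH3 gave much less signal, 78.0, 86.1 and 82.8 in Control and 110.0, 115.8 and 129.9 with DCC-2036. The treated libraries were all above the Control libraries. The log2 fold change was 0.52 (SE 0.11, adjusted p = 0.00688), and MSH3 was the only member called higher. This call lay close to the limit and was lost under 8 of 13 alternatives, where the adjusted p was between 0.0158 and 0.0309. Among them were the fits without Control 1, Control 2, Control 3 or DCC-2036 2, with adjusted p = 0.0309, 0.0243, 0.0281 and 0.0264. It was also lost with libraries scaled to equal totals, where the log2 fold change was 0.33. MSH3 has 1 transcript in the table, with 24 exons over 221.8 kb on chr5:80654648-80876460.

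MSH5, the meiotic homologue, fell. Its signal was 378.9, 370.5 and 389.4 in Control and 94.6, 143.9 and 169.3 with DCC-2036, and the groups lay far apart. The log2 fold change was -1.52 (SE 0.21, adjusted p = 0.00168). All 4 of its transcripts, each of 25 exons on chr6:31739948-31762834, were called lower, with log2 fold changes from -1.63 to -1.52. Its meiotic partner MSH4 moved the other way, from 36.8, 38.9 and 20.0 in Control to 105.0, 166.8 and 257.6 with DCC-2036. The treated MSH4 libraries were all higher and differed widely from each other (log2 fold change 2.40, SE 0.38, adjusted p = 0.00258). Without DCC-2036 2 the adjusted p of MSH4 was 0.0111.

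The MutL subunits split in another way. PMS2, which carries the nicking activity of the main MutL complex, had signals of 613.9, 651.6 and 612.9 in Control and 755.8, 635.2 and 439.6 with DCC-2036. The treated libraries lay on both sides of the Control libraries and spread far more widely, with SD 159.5 against 22.04. The log2 fold change was -0.07 (SE 0.20, adjusted p = 0.769), with the sign turned to 0.01 when scaled by the median of ratios and to 0.15 without DCC-2036 3. None of the 14 PMS2 transcripts passed the test. Their log2 fold changes lay between -0.15 and -0.06, and the adjusted p lay between 0.52 and 0.818. PMS2 has close pseudogene copies, and how reads were shared among them is not given in the sources used here, so its values are uncertain.

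MLH3, a MutL subunit with roles in meiosis and in the repair of loops, had the lowest adjusted p among the members. Its signal was 347.1, 317.0 and 281.4 in Control and 61.1, 28.6 and 67.4 with DCC-2036. The highest treated library was far below the lowest Control library, and DCC-2036 2 was the lowest of all. The treated mean was 16.6% of the Control mean, with a log2 fold change of -2.65 (SE 0.32, adjusted p = 0.000999). The other MLH3 transcript, which has 12 exons in place of 13, had a log2 fold change of -2.70 and was also called lower. MLH3 lies on chr14:75013764-75051532.

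The 3 genes whose pattern was most like that of MLH3 were HOMEZ, C19orf68 and MAP3K10, by Euclidean distance between centred log2 profiles over 6 libraries, among 10206 genes with a mean of at least 100. The distances were 0.615, 0.621 and 0.647. HOMEZ had signals of 320.7, 312.6 and 290.7 in Control and 53.8, 30.6 and 42.2 with DCC-2036. In all 3 genes, as in MLH3, DCC-2036 2 was the lowest library. This likeness follows from choosing them by distance over the same 6 libraries and is no separate result.

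PMS1, a MutL subunit whose part in repair is less clear, had signals of 523.8, 526.9 and 474.8 in Control and 288.3, 312.7 and 301.4 with DCC-2036. The treated libraries were close to each other and well below Control. The log2 fold change was -0.75 (SE 0.10, adjusted p = 0.00133). The transcripts of PMS1 did not all behave in this way. Of 12 in the table, 10 reach the far end of the gene, and all 10 were called lower, with log2 fold changes from -1.08 for NM_001321046.1 to -0.56 for NM_001321044.1.

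The other 2 transcripts of PMS1 end early, about 23.0 kb from the first start of a gene of 93.5 kb. NM_001321049.1, with 4 exons, had signals of 92.2, 89.6 and 75.3 in Control and 99.8, 184.9 and 226.4 with DCC-2036. NM_001321051.1, with 5 exons, had signals of 89.4, 87.9 and 71.6 in Control and 89.4, 162.2 and 202.9 with DCC-2036. In both, DCC-2036 1 was close to the highest Control library, and the other treated libraries were well above it. Their log2 fold changes of 0.91 and 0.79 did not pass the test (adjusted p = 0.0358 and 0.0568). Without DCC-2036 1 both were called higher, at 1.25 (adjusted p = 0.00101) and 1.13 (adjusted p = 0.00174), so 1 library decides this call.

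Of the 1882 bases of the model for NM_001321049.1, 1300 lie outside the exons of the long models, all in its last exon. For NM_001321051.1 it is 424 of 948 bases. The remaining 582 and 524 bases are shared with the long models, so the short and long transcripts share reads. As a ratio to the most abundant transcript, NM_001321047.1, the signal of NM_001321049.1 was 0.178, 0.172 and 0.160 in Control and 0.349, 0.593 and 0.752 with DCC-2036. Every treated ratio was above every Control ratio (exact permutation test, two-sided, p = 0.1, the smallest that 3 against 3 libraries can give). This ratio was chosen after the values had been seen.

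**Figure D2:**
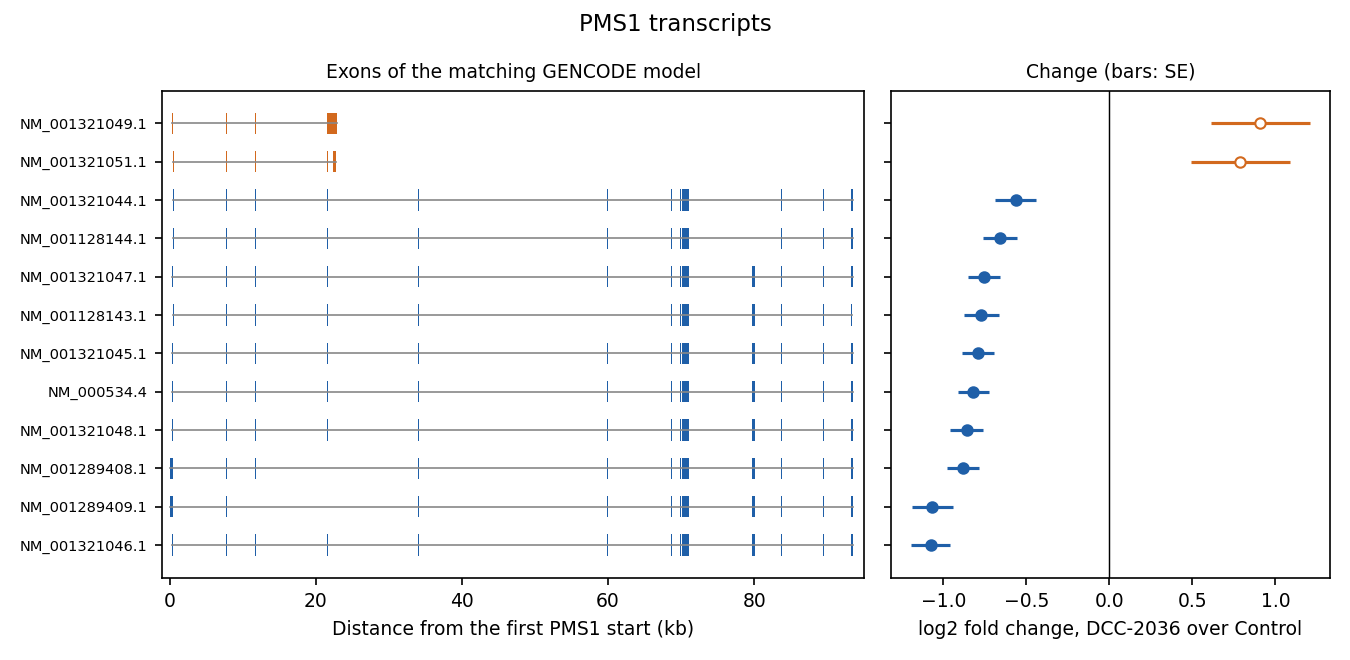
Left, exons of the GENCODE 29 model matched to each PMS1 transcript by distance from the first start (kb), where models shared by several transcripts are drawn once for each; right, log2 fold change of DCC-2036 over Control with its standard error. Filled points passed the test and open points did not: the 10 long transcripts lie between -1.08 and -0.56, and the 2 short ones at 0.79 and 0.91.

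EXO1, the exonuclease that opens the gap to be refilled, had signals of 785.9, 903.7 and 868.9 in Control and 313.9, 197.2 and 151.1 with DCC-2036. All treated libraries were below the Control libraries, and the treated mean was 25.9% of the Control mean. The log2 fold change was -2.01 (SE 0.26, adjusted p = 0.00127). All 4 EXO1 transcripts were called lower, from -2.12 to -2.01. EXO1 lies on chr1:241847967-241895148. EPCAM, on chr2:47345158-47387601, had signals of 4651, 4558 and 4524 in Control and 5472, 5341 and 5961 with DCC-2036. All treated libraries were above Control, with a log2 fold change of 0.29 (SE 0.10) that did not pass the test (adjusted p = 0.0379). With equal totals it was 0.0971 (adjusted p = 0.379), and the groups overlapped.

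Over the 42 transcripts of the members, 20 were called lower and 1 was called higher, in a fit over 32323 transcripts. Of all transcripts in that fit, 22.4% were called lower and 19.7% were called higher. The transcripts of a gene share reads and are not independent counts of its change.

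Levels of different genes were compared per kb of the matched GENCODE model. In Control, EPCAM had the highest signal per kb with 2655 ± 38.4 (SD, n = 3). It was followed by EXO1 with 246 ± 17.4, MSH6 with 227 ± 5.22 and PMS2 with 219 ± 7.72. The means of MSH6 and PMS2 lay within the spread of their libraries, and those of EXO1 and MSH6 were close, with MSH6 above EXO1 in Control 1 (231 and 226). PMS1 with 158 ± 9.06, MSH5 with 123 ± 3.06, MLH3 with 39.9 ± 4.16 and MSH3 with 20.1 ± 1.00 came next. With DCC-2036 the order was EPCAM (3243 ± 189), MSH6 (267 ± 8.93), PMS2 (214 ± 55.9) and PMS1 (93.3 ± 3.78). Then came EXO1 (63.6 ± 24.2), MSH5 (43.9 ± 12.3), MSH3 (28.98 ± 2.50) and MLH3 (6.63 ± 2.64), with MSH6 and PMS2, and EXO1 and MSH5, within their spread. EXO1 stood below MSH6 per kb in each DCC-2036 library. MLH3 stood above MSH3 in each Control library and below it in each DCC-2036 library. The place of MSH6 depends on the model, since the 3930 bases of NM_001281492.1 in place of 7476 give 381 per kb in Control, above EXO1. Differences between genes in these levels were not tested.

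Ratios within a library do not depend on how libraries were scaled against each other. MSH6 gave 21.9, 18.98 and 20.4 times the signal of MSH3 in Control and 18.2, 16.5 and 15.7 times with DCC-2036. The ratio was lower in every treated library, by 0.28 on the log2 scale. PMS2 over MLH3 was 1.77, 2.05 and 2.17 in Control and 12.2, 21.5 and 6.44 with DCC-2036. PMS2 over PMS1 was 1.17, 1.24 and 1.29 in Control and 2.62, 2.03 and 1.46 with DCC-2036. These PMS2 ratios were higher in every treated library than in every Control library. For PMS2 over PMS1 the lowest treated value was 1.46, against a highest Control value of 1.29. The signal of PMS2 itself did not pass the test, and its values are uncertain as stated above.

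MSH5 over MSH4 went from 10.1, 9.31 and 18.6 in Control to 0.902, 0.864 and 0.659 with DCC-2036, a ratio chosen after the values had been seen. Relative to PCNA, the sliding clamp that serves both replication and repair, MSH6 was at 0.297, 0.275 and 0.288 in Control and at 0.374, 0.367 and 0.388 with DCC-2036. EXO1 relative to PCNA was at 0.135, 0.150 and 0.147 in Control and at 0.0582, 0.0378 and 0.0288 with DCC-2036. In all 10 ratios computed the groups did not overlap, with an exact permutation p of 0.1 in each (two-sided, adjusted p = 0.1 over the 10). A smaller p cannot be had with 3 against 3 libraries, so these ratios are described and not called. These ratios compare signals per transcript, not per length.

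**Figure D3:**
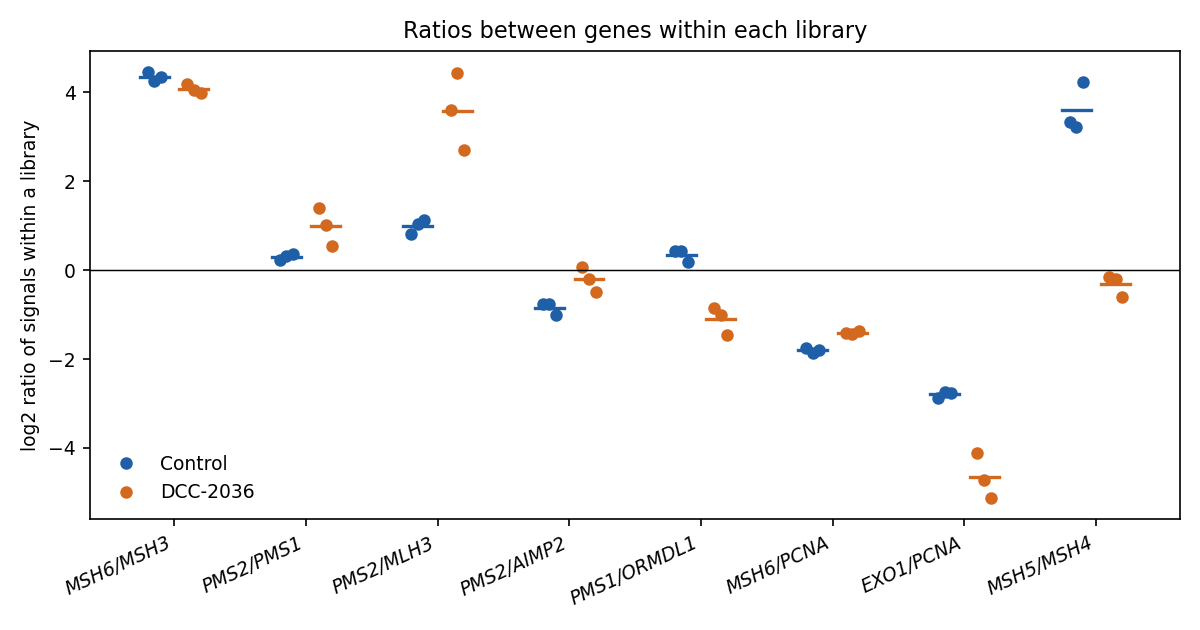
Log2 ratio of the signals of 2 genes within each library, with 3 Control and 3 DCC-2036 points per ratio and a short line at each group mean. The groups do not overlap in any ratio shown; MSH5/MSH4 has the widest shift, by -3.91, and MSH6/MSH3 the smallest, by -0.28.

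Several members lie head to head with another gene, on opposite strands with starts close together. PMS1 starts 286 bases from ORMDL1, a regulator of sphingolipid synthesis. ORMDL1 had signals of 389.2, 388.9 and 418.8 in Control and 520.7, 626.7 and 833.9 with DCC-2036. Its log2 fold change of 0.70 (SE 0.18) did not pass the test (adjusted p = 0.0153). It passed without DCC-2036 1 (adjusted p = 0.00378) and without DCC-2036 3 (adjusted p = 0.00977), and over all 6 libraries with a trend in limma (adjusted p = 0.00643). PMS1 over ORMDL1 went from 1.34, 1.35 and 1.13 to 0.554, 0.4998 and 0.362. The CCAAT pair printed above for PMS1 lies between the RefSeq starts of these genes.

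PMS2 starts 120 bases from AIMP2, a scaffold of the complex of aminoacyl-tRNA synthetases. AIMP2 had signals of 1043, 1111 and 1239 in Control and 716.5, 726.1 and 623.1 with DCC-2036. It was called lower, with a log2 fold change of -0.71 (SE 0.12, adjusted p = 0.00288), while PMS2 did not pass the test. Without Control 2, Control 3 or DCC-2036 2 its adjusted p was 0.0146, 0.0146 and 0.0115. PMS2 over AIMP2 was 0.589, 0.587 and 0.495 in Control and 1.06, 0.875 and 0.706 with DCC-2036. The stretch between them, printed above, holds CCAAT in both orientations and overlapping GC boxes.

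The other neighbours moved in the direction of their member's values. FBXO11, a ubiquitin ligase subunit whose annotated span overlaps that of MSH6 on the opposite strand by 20786 bases, had a log2 fold change of 1.01 (adjusted p = 0.00101), against 0.24 for MSH6. SAPCD1, whose span overlaps that of MSH5 by 36 bases, had a log2 fold change of -0.95 (adjusted p = 0.00479), with adjusted p = 0.0175, 0.0135 and 0.0187 without Control 1, Control 2 or DCC-2036 2. ACYP1, which ends 1689 bases before MLH3 on the same strand, had signals of 94.8, 113.3 and 131.8 in Control and 50.8, 44.4 and 37.8 with DCC-2036, a log2 fold change of -1.33 (adjusted p = 0.00114). CLIC1, which starts 185 bases from MSH5 and was added after the values had been seen, had a log2 fold change of -0.42 that did not pass (adjusted p = 0.0197), except with equal totals (-0.61, adjusted p = 0.0065) or with a trend in limma (adjusted p = 0.00542). MSH5-SAPCD1, an annotated gene with no values of its own here, overlaps MSH5 by 22815 bases. Reads of overlapping genes cannot be told apart with the values used here, and the sources do not state whether reads were counted by strand.

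**Figure D4:**
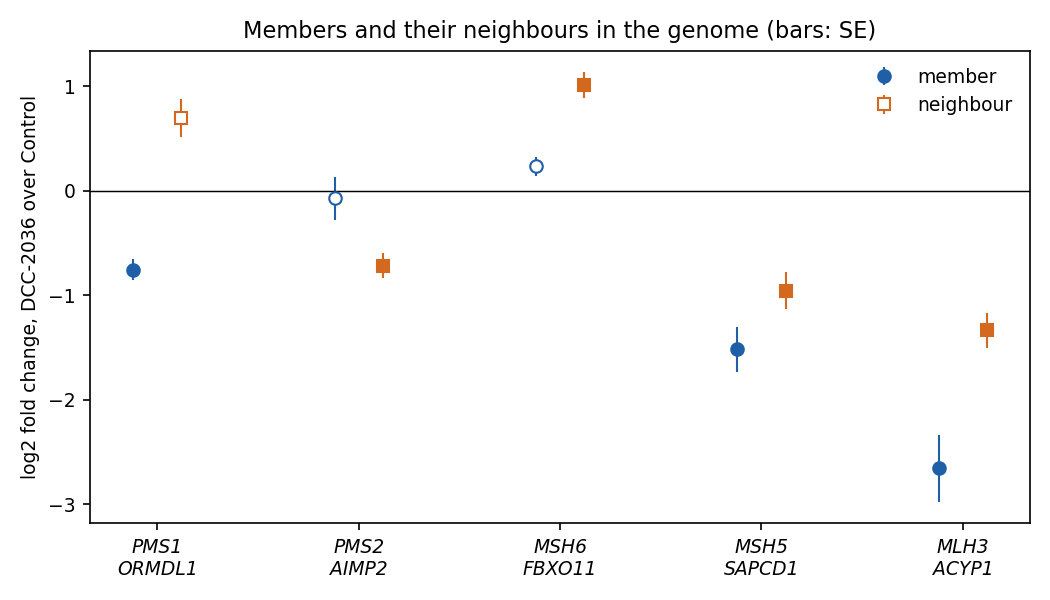
Log2 fold change of DCC-2036 over Control with its standard error for 5 members (circles) and the neighbour of each in the genome (squares). Filled symbols passed the test and open symbols did not; PMS1 lies at -0.75 and ORMDL1 at 0.70.

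The genes that complete the repair after excision are described next. Of 16 genes for excision and resynthesis, 15 were tested, 5 were called lower and 1 higher (22.7% and 19.2% of all tested genes), with a median log2 fold change of -0.21. RFC5 and RPA2, subunits of the clamp loader and of the single-strand binding protein, were the lowest, at -1.82 and -1.29. RFC1, the large subunit of the clamp loader, was called higher at 0.51. PCNA (-0.16, adjusted p = 0.165) and LIG1, the ligase that seals the nick (0.03, adjusted p = 0.816, and -0.16 with equal totals), did not pass. EXO1, at -2.01, was below every called gene of this list, a difference that was not tested. The call of RFC1 was lost under 7 of 12 alternatives, among them the fits without Control 1, Control 2, Control 3 or DCC-2036 2 (adjusted p = 0.03, 0.0284, 0.0344 and 0.0329), and the list then had no called gene that was higher.

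Of 12 genes associated with mismatch repair, 4 were called lower and 1 higher (22.7% and 19.2% of all tested genes), with a median of -0.59. MUTYH and OGG1, glycosylases that act on oxidised guanine pairs, were the lowest, at -2.45 (adjusted p = 0.000186) and -1.57 (adjusted p = 0.000298). SETD2, the histone methyltransferase whose mark helps to bring MSH6 to chromatin, had signals of 1798, 1655 and 1618 in Control and 2966, 4300 and 5990 with DCC-2036. It was called higher, with a log2 fold change of 1.33 (SE 0.25, adjusted p = 0.00455). Without Control 1, Control 2, Control 3 or DCC-2036 2 the adjusted p of SETD2 was 0.0165, 0.0182, 0.0198 and 0.0177. Among the 7 meiotic partners of MSH5 and MLH3, 6 had an entry and 3 were tested. MSH4 and CCNB1IP1 were called higher, at 2.40 and 1.82, and MUS81, a crossover nuclease, was called lower at -1.65. Of all tested genes, 19.2% were called higher and 22.7% lower, and this list rests on only 3 tested genes. The call of MSH4 was lost with the replicate block (adjusted p = 0.014) and without DCC-2036 2 (adjusted p = 0.0111).

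Replication genes are shown beside the members because many repair genes are transcribed with them. Of 22 genes of S phase and proliferation, limma called 14 lower and 0 higher, with a median of -0.71. The same fit called 22.7% of all tested genes lower and 19.2% higher. GINS1 and GINS4, parts of the replicative helicase, were the lowest at -2.94 and -2.37. Without Control 1, Control 2, Control 3 or DCC-2036 2 the list had 8 genes called lower in each case, and GINS1 was not among them. Lower calls over all genes also fell in these fits, from 2887 to 1593, 1514, 1525 and 1708. EXO1, MLH3 and MSH5 were below the median of this list, and PMS1, at -0.75, was close to it. MSH6, MSH3 and PMS2 were above it.

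Of 13 partners and processing enzymes of EPCAM, 11 were tested, and limma called 4 higher and 0 lower (19.2% and 22.7% of all tested genes), with a median of 0.19. With libraries scaled to equal totals, 2 were called higher and 1 lower, and the median turned to -0.0048. ADAM17, a protease that can shed the EPCAM ectodomain, and CD44, an adhesion receptor, were the highest of the called genes, at 1.08 and 0.83. Without Control 2 or Control 3 the adjusted p of CD44 was 0.0108 and 0.01, and 1 gene of the list was called higher. CLDN7, the claudin that binds EPCAM, had a log2 fold change of -0.25 that did not pass (adjusted p = 0.115), except with equal totals (-0.44, adjusted p = 0.00864).

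**Figure D5:**
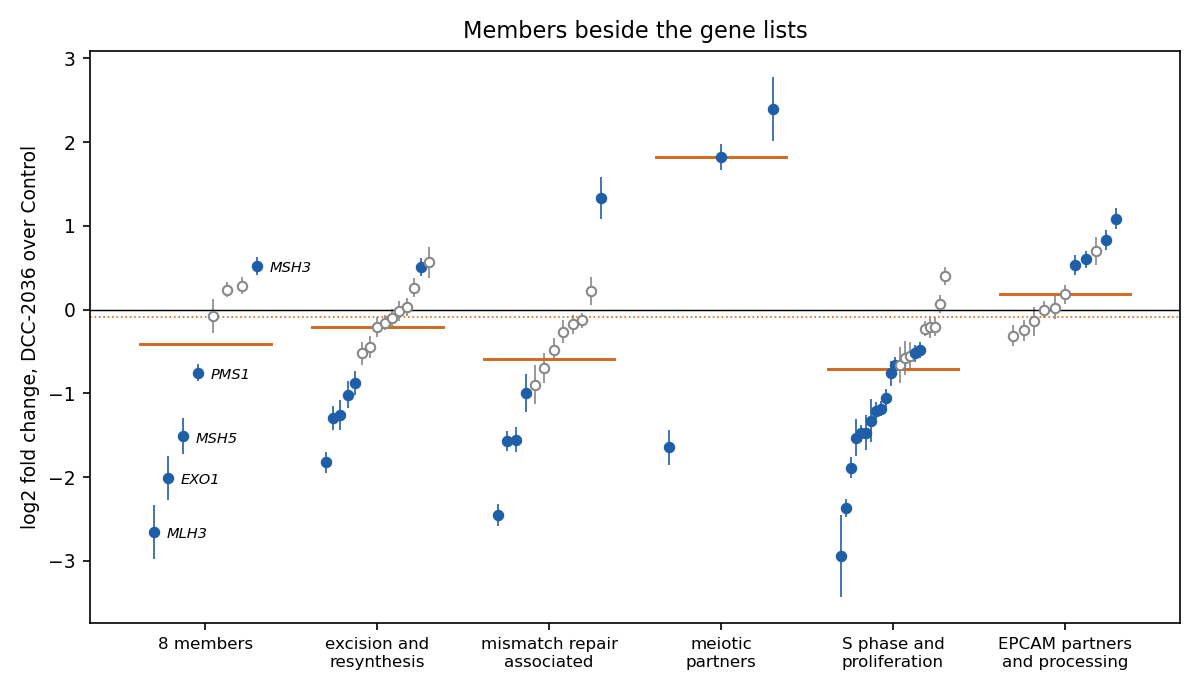
Log2 fold change of DCC-2036 over Control with its standard error for the 8 members and for the tested genes of 5 lists, ordered within each list. Filled points were called and open points were not (PMS2, MSH6 and EPCAM among the members, from left to right), solid lines are list medians, and the dotted line is the median of all tested genes at -0.09.

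The direction of small changes depended on the scaling. When libraries were scaled to equal totals, the median of all genes moved by -0.19, to -0.28, and the share of higher among all called genes went from 45.8% (2442 higher and 2887 lower) to 33.6% (1716 and 3386). Scaled by the median of ratios, it was 50.7% (2710 and 2634). Relative to the median of all genes, the log2 fold change was 0.61 for MSH3, 0.38 for EPCAM, 0.33 for MSH6 and 0.02 for PMS2. It was -0.66 for PMS1, -1.42 for MSH5, -1.92 for EXO1 and -2.56 for MLH3.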

How the data were processed

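RNA of 3 Control and 3 DCC-2036 cultures was measured, grouped by the titles in the labels, which give 48 h. A figure legend of the paper gives another time. Whether cultures were independent is not stated, so p-values measure only the spread between these libraries. Part of this spread was ordered. From DCC-2036 1 to DCC-2036 3, EXO1 and PMS2 fell at each step, MSH3 and MSH5 rose, and MLH3, PMS1, MSH6 and EPCAM did neither. Beyond the members, MSH4, SETD2 and ORMDL1 rose, GINS1 fell, and PCNA and AIMP2 did neither. Column totals rose in this way in both groups. Whether the treated libraries are exchangeable replicates, and the cause of this order, were not tested. The authors deposited 1 normalized signal per RefSeq transcript and library, not divided by length. How reads were aligned, counted and adjusted is not given in the sources used here. Columns of the authors' own comparison, with a p-value, its adjusted form and the change on the log2 scale, were also deposited and were not used. The values are not whole numbers, so limma 3.58.1 in R 4.3.3 was fitted to log2(value + 1) over all genes with a signal of at least 10 in at least 3 libraries, tested on simulated data, with Benjamini-Hochberg adjustment. Ratios were tested with scipy 1.17.1 (exact permutation, two-sided) in Python 3.11.15, with pandas 2.3.3, numpy 2.4.6 and matplotlib 3.10.9.

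Members and lists were chosen with earlier results of these data known. Named genes were the members, their neighbours, PCNA, SETD2, MSH4, LIG1 and CLDN7, the 2 highest and 2 lowest called genes of each list, and the 3 genes nearest to the member with the lowest adjusted p. Some items of this rule are not reported here. Markers, CLIC1 and the 3 added ratios were named beyond this rule. Gene positions and lengths are from GENCODE 29, matched by RefSeq accession, and promoters, also searched for E2F sites, from RefSeq. The deposited table names no genome build. Alternatives were scaling to equal totals or by the median of ratios, no filter, a pseudocount of 0.1, a replicate block, a trend in limma, each library left out, all transcripts as separate entries and, for ratios, sums over transcripts.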

Additional observations from a re-analysis of the deposited data

How the results depend on the processing

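MLH3, EXO1, MSH5 and PMS1 kept their direction and their call under all 13 alternatives run, and MSH6 and EPCAM kept their direction without being called, with adjusted p from 0.0274 to 0.685 and from 0.0132 to 0.379. MSH3 was no longer called when scaled to equal totals (0.33, adjusted p = 0.0194), with no filter (0.52, adjusted p = 0.0158), with a trend in limma (0.52, adjusted p = 0.0243) or with the replicate block (0.52, adjusted p = 0.0205), and its log2 fold change was 0.45 to 0.57 when 1 library was left out. In these 4 settings 0 of 8 members and 0 of 42 member transcripts were called higher. When 1 library was left out, 0 to 1 members and 0 to 3 member transcripts were called higher, and all 4 lower members were called each time. PMS2 turned to 0.0095 when scaled by the median of ratios and to 0.15 without DCC-2036 3, in a range of -0.24 to 0.15 when 1 library was left out. LIG1 turned to -0.16 with equal totals and ranged from -0.0104 to 0.10 when 1 library was left out, turning without Control 1 and Control 2.

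Scaled to equal totals, the median log2 fold change was -0.60 for the members, -0.40 for excision and resynthesis, -0.78 for the associated genes and -0.0048 for the EPCAM partners. Scaled by the median of ratios it was -0.13 for excision and resynthesis, and with no filter it was 0.53 for the EPCAM partners. With the values as deposited, the median was -0.48 to -0.31 for the members and -0.27 to -0.16 for excision and resynthesis when 1 library was left out. Excision and resynthesis had 0 genes called higher with equal totals, no filter or the replicate block, and the associated genes had 0 with no filter or the replicate block. Of the EPCAM partners, 2 were called higher with equal totals or with the replicate block, and 1 was called lower with equal totals. The replicate block left 1 meiotic partner called higher. When 1 library was left out, excision and resynthesis had 0 to 2 called higher and 2 to 5 lower, the associated genes 0 to 1 higher, the meiotic partners 1 to 2 higher, the S phase genes 8 to 17 lower and the EPCAM partners 1 to 5 higher.

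Of the called neighbours and partners, SAPCD1 lost its call under 6 of 12 alternatives (adjusted p from 0.00253 to 0.0187), AIMP2 under 4 (0.000731 to 0.0161) and MSH4 under 2 (0.00062 to 0.014). All 10 ratios kept their direction, with the widest range for PMS2 over MLH3, 2.15 to 3.02 on the log2 scale. The number of called genes was 928 to 2675 higher and 1514 to 3507 lower when 1 library was left out, with fewer libraries in each fit. Higher calls were 2675 and 2487 without DCC-2036 1 or DCC-2036 3. They were 928 without DCC-2036 2, the middle library of the genes with an order, and 992 to 1054 without a Control library. Equal replicate numbers did not pair the libraries, with correlations of deviations of 0.081, -0.035 and -0.003. The replicate block gave 1202 higher and 1909 lower genes. Depth is unknown, so counting error could not be given. Where no value is given for a cause of these shifts, the cause was not tested.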
